A study of Mus musculus with 6 samples.

Results

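The genes of the Wnt pathway described here are its ligands, receptors, antagonists and effectors, 52 of the 17097 mouse genes that had a probe set of their own on the array. They were chosen by symbol, as the Wnt, Fzd, Sfrp and Dkk families, *Rspo1* to *Rspo4*, and a set of 12 singly listed genes (*Lrp5*, *Lrp6*, *Wif1*, *Axin1*, *Axin2*, *Apc*, *Lef1*, *Tcf7*, *Tcf7l2*, *Rnf43*, *Znrf3* and *Porcn*), of which 11 were measured. *Tcf7* had no probe set of its own in the platform annotation used here. The 52 genes were read by 86 probe sets, and each gene is given by the brightest of its probe sets, the one with the highest mean over the 6 arrays.

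The cells were sorted from mouse cutaneous squamous cell carcinoma (cSCC) as α6-integrin+, CD45- and EpCAM+, which keeps epithelial cancer cells and leaves leukocytes out. Full epithelial cancer cells came from 3 independent well-differentiated tumors (WD-SCCs, n = 3) and EpCAM+ plastic cancer cells, a mixture of EpCAM high and EpCAM low cells, from 3 independent moderately or poorly differentiated tumors (MD/PD-SCCs, n = 3), with 1 array per tumor. The study's cSCC cells derive from spontaneous or DMBA/TPA-induced tumors of K14-HPV16 Tg/+ mice, which carry viral oncogenes under a keratin promoter active in basal keratinocytes. In its progression model, WD-SCCs grown from few cancer cells were passed on as grafts in athymic nude mice and gave rise to MD/PD-SCCs, but no source used here names the hosts of the 6 arrayed tumors. The question addressed is which Wnt genes differ between the full epithelial and the EpCAM+ plastic cancer cells of these separate tumors. The values are normalized log2 intensities, and every difference below is plastic minus full epithelial on that scale.

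Wnt ligands are secreted lipid-modified proteins that bind Frizzled receptors, together with the co-receptors *Lrp5* or *Lrp6*, at the cell surface. In the canonical branch this stops a destruction complex built on Axin and *Apc* from degrading β-catenin, which then enters the nucleus and acts through Tcf/Lef transcription factors. In skin the pathway is known for its part in hair follicle formation, in stem cell upkeep and in the growth of squamous tumors.

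*Tcf7l2*, a Tcf/Lef transcription factor through which β-catenin acts on its targets, had the largest difference of the 52 genes and rose 2.47-fold in EpCAM+ plastic cancer cells. *Porcn*, the acyltransferase that attaches the lipid to Wnt ligands, rose 1.82-fold, and the ligand gene *Wnt11* fell. Sorted cells are bulk samples, so fewer cells of a kind and less RNA per cell cannot be told apart. The other 49 genes did not pass the test (limma, Benjamini-Hochberg adjusted p under 0.05 over all 45141 probe sets). Of all 17097 genes, 7.21% passed, 5.3% higher and 1.91% lower, which is the background for the 2 Wnt genes that rose and the 1 that fell, and 5.98% of all probe sets passed. With a minimum log2 difference of 1 added, *Tcf7l2* alone passed, where 2.83% of all genes did, 1.99% higher and 0.831% lower. The median log2 difference was −0.02 over the 52 genes and −0.02 over all genes, and 23 of the 52 differences were above 0 and 29 below. The plastic arrays all lay above the full epithelial arrays in 7 of the 52 genes and all below them in 7, which was so in 15.4% and 13.7% of all genes. With an unadjusted p under 0.05, 7 of the 52 were higher and 5 lower, and 23.9% of all genes passed in either direction.

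**Figure D1:**
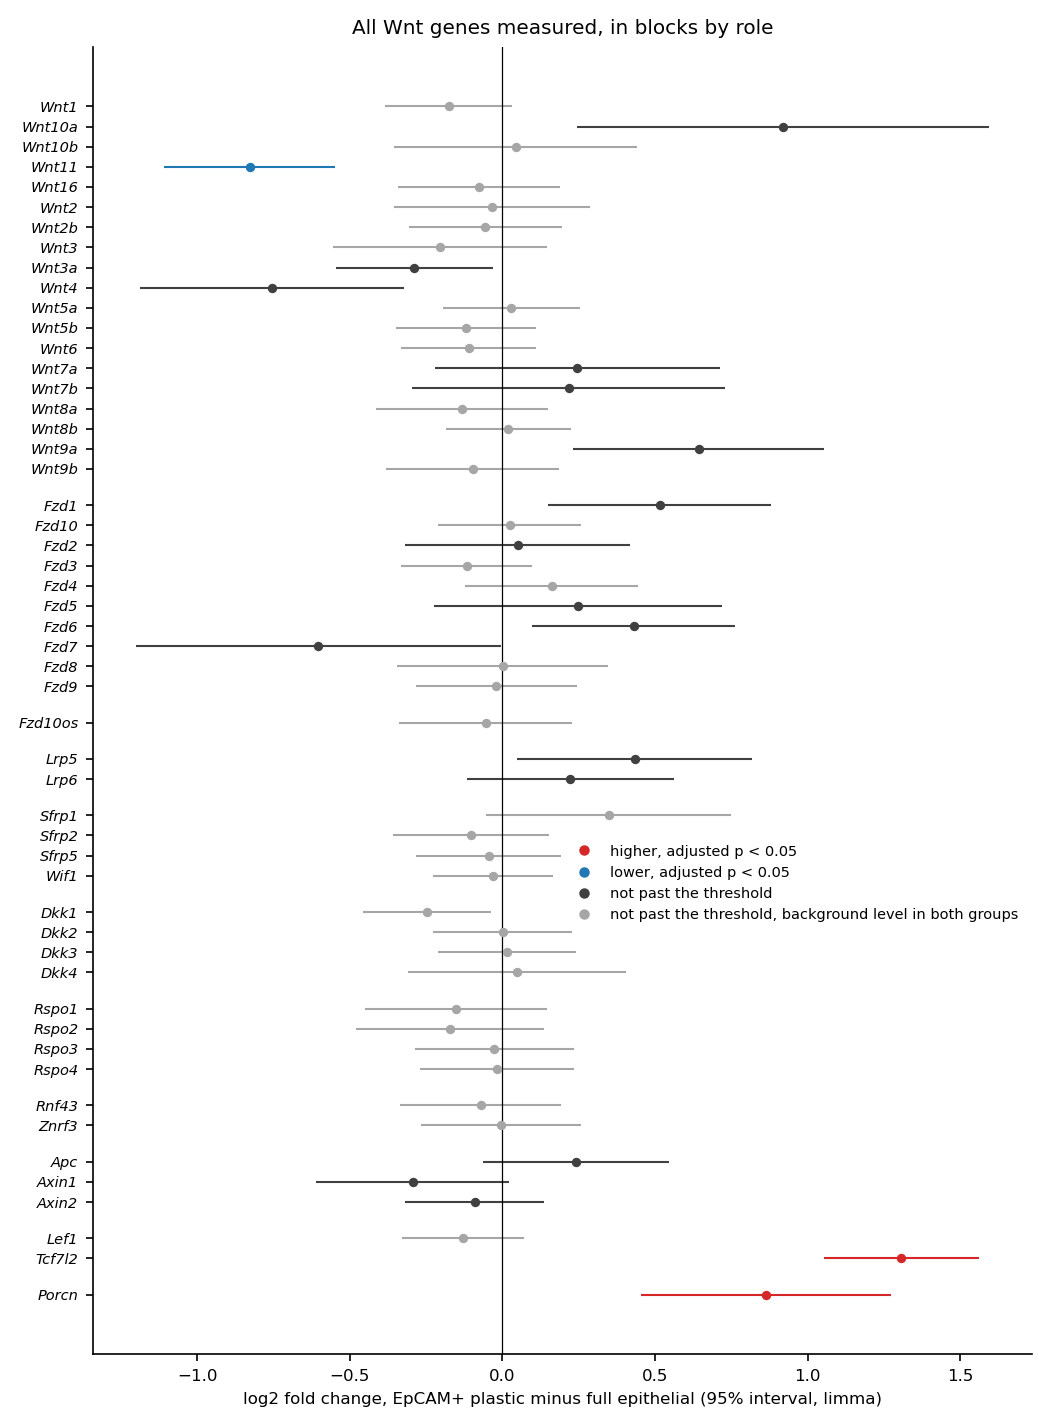
Log2 difference (EpCAM+ plastic minus full epithelial, x axis) of each of the 52 Wnt genes, in blocks by role from the ligands at the top to *Porcn* at the bottom, with 95% intervals from limma. *Tcf7l2* and *Porcn* lie to the right and *Wnt11* to the left among the genes past the threshold, and most genes at the background level sit near 0.

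Many of these genes gave no more signal than the array's own background. A background level of 5.71 was taken from 23 control probe sets that match no gene. Of the 52 genes, 16 had a mean above it in both groups, 3 in 1 group only (*Wnt11* in full epithelial cells, *Wnt10a* and *Fzd6* in plastic cells) and 33 in neither. The differences of those 33 ran from −0.25 to 0.35 with a median of −0.05. A difference between values near background understates any change of the transcript, so for these genes a missing call says little about their RNA. Among the 17 genes whose mean over the 6 arrays was above the background level the same 3 genes passed, where 13.5% of the 7798 such genes did, and the median was 0.22 against 0.09 over those 7798 genes.

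**Figure D2:**
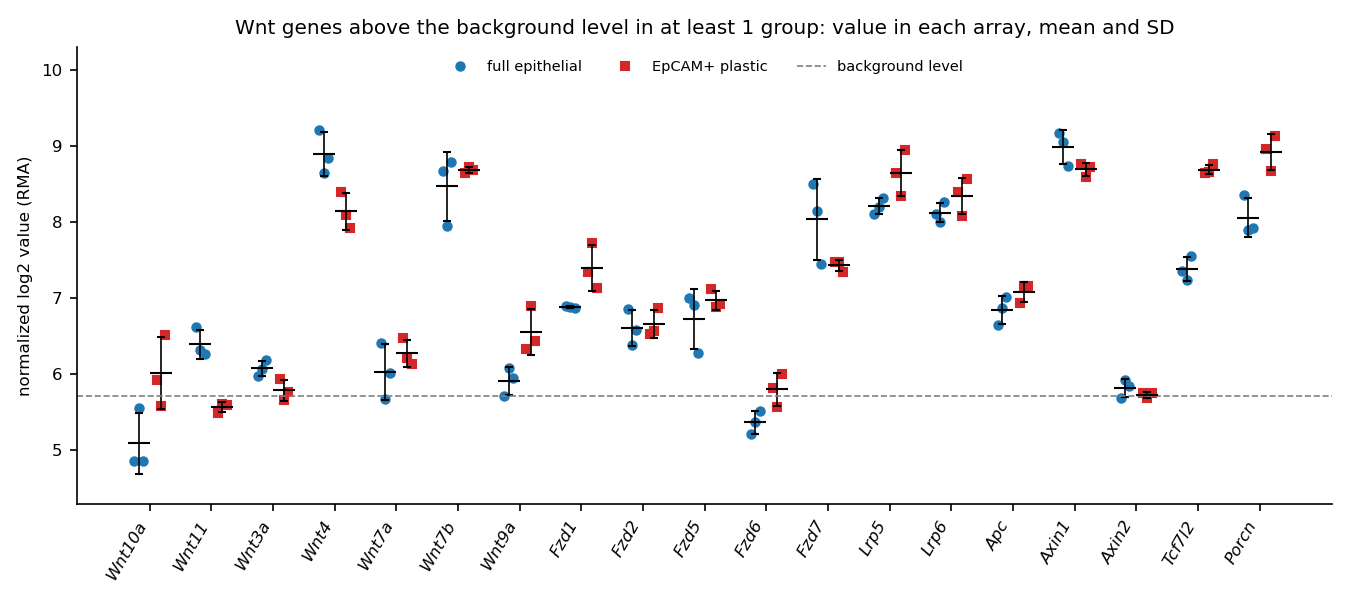
Normalized log2 value (y axis) of the 19 Wnt genes with a mean above the background level in at least 1 group, in the 3 full epithelial arrays (blue circles) and the 3 EpCAM+ plastic arrays (red squares), with the mean and SD in black and the background level of 5.71 as a dashed line. The groups stand fully apart for *Tcf7l2*, *Porcn*, *Wnt11*, *Wnt4*, *Wnt9a*, *Wnt10a*, *Wnt3a*, *Fzd1*, *Fzd6* and *Lrp5*, of which only the first 3 passed the test.

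Tcf/Lef factors recognise a short core in DNA, written here as CTTTGA, or TCAAAG when read on the other strand. RefSeq start-site windows (250 bases before a start to 50 after it, build GRCm38.p6) were matched for 32 of the 52 genes. Those of the called genes *Tcf7l2* and *Wnt11* are shown because one encodes the factor itself and the other carries the core, set in capitals; *Porcn* was not matched. The first *Tcf7l2* window lies at chr19:55741560-55741859 on the plus strand, the second at chr19:55895071-55895370 on the plus strand, and the first of 2 *Wnt11* windows at chr7:98834862-98835161 on the plus strand.
Tcf7l2 window 1: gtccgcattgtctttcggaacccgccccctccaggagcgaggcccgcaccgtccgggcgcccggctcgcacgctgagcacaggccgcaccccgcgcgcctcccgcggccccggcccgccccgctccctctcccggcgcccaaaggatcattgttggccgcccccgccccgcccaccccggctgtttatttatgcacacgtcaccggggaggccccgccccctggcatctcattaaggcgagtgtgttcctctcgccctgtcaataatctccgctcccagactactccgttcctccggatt
Tcf7l2 window 2: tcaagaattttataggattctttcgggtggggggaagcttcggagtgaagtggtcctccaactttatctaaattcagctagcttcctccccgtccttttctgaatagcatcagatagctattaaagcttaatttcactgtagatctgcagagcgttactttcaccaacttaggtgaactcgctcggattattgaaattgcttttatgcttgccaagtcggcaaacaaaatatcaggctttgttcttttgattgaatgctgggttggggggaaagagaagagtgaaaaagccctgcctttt
Wnt11 window 1: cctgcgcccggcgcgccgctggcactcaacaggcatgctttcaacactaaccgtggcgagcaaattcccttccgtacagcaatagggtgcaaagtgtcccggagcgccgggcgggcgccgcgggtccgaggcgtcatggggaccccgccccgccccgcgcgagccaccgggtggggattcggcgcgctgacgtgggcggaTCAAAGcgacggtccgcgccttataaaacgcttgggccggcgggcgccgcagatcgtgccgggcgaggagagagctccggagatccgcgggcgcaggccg
The core starts 50 bases before the *Wnt11* start of window 1. It is in neither *Tcf7l2* window and not in the second *Wnt11* window. The longer form CTTTGAT, which contains the core, is in the first *Wnt11* window, read as ATCAAAG. The core was present for 5 of the 32 matched genes (*Dkk1*, *Fzd1*, *Lef1*, *Wnt11* and *Wnt5b*; 15.6%) and for 18.2% of all 27025 genes in the table, and the longer form for 2 of the 32 (*Wnt11* and *Wnt5b*) and 4.29% of all genes. A match describes the letters only and is no measurement of binding.

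Among the Tcf/Lef factors, *Tcf7l2* (Entrez gene 21416) read 7.35, 7.24 and 7.55 in full epithelial cells and 8.65, 8.66 and 8.76 in plastic cells. Each plastic array was above each full epithelial array by about 1 log2 unit or more. The means were 7.38 ± 0.16 (SD, n = 3) and 8.69 ± 0.06 (SD, n = 3), a log2 difference of 1.31 with a standard error of 0.11 and an adjusted p of 0.00567 (limma). Its 3 other probe sets rose too. The next brightest probe set read 6.79, 5.90 and 6.53 against 8.40, 8.25 and 8.65, a log2 difference of 2.02 ± 0.24 (SE), or 4.06-fold (adjusted p = 0.0104, limma). The pair of dimmest probe sets were under the background level in both groups and differed by 0.93 and 0.79 (adjusted p = 0.0146 and 0.0471, limma), so the direction was shared by all 4, and those 2 give no measure of its size. *Tcf7l2* passed with any 1 of the 6 arrays left out, at 1.24 to 1.39. *Lef1*, the Tcf/Lef factor best known from the hair follicle, was at background, with 3.66, 3.77 and 3.74 against 3.64, 3.59 and 3.55. The plastic values were all lower by a narrow margin, with a log2 difference of −0.13 (95% interval −0.33 to 0.07).

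**Figure D3:**
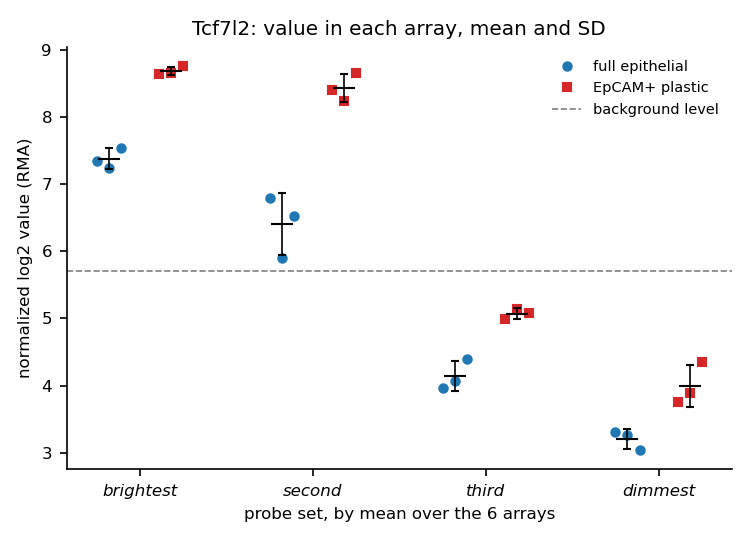
Normalized log2 value (y axis) of the 4 *Tcf7l2* probe sets, ordered by mean over the 6 arrays (x axis), in 3 full epithelial (blue circles) and 3 EpCAM+ plastic arrays (red squares), with mean and SD in black and the background level dashed. The groups do not overlap in any of the 4, and the third and the dimmest lie under the background level in all 6 arrays.

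*Tcf7l2* lies on chromosome 19, on which 100 of 568 genes rose (17.6%) and 1 fell, while 4.88% of genes on the other chromosomes rose. Of the 24 measured genes nearest to it, 12 on each side, 8 rose and 0 fell by limma, and their median log2 difference was 0.41, with a range of −0.27 to 1.53. *Vwa2*, 7 genes away, was the only one of the 24 with a larger difference than *Tcf7l2*. *Dclre1a*, *Fam160b1*, *Pdcd4*, *Tdrd1*, *Zdhhc6*, *Bbip1* and *Shoc2* were the others that rose, at 1.04, 1.04, 0.88, 0.88, 0.82, 0.65 and 0.42. The part of the chromosomal position in the *Tcf7l2* result was not tested. The other Wnt genes on chromosome 19 were *Lrp5* at 0.43, *Dkk1* at −0.25, *Sfrp5* at −0.05 and *Wnt8b* at 0.02, and none of these passed. The neighbours of *Porcn* on chromosome X had a median of 0.04 with 3 of 24 higher, and those of *Wnt11* on chromosome 7 a median of 0.04 with 0 of 24 called by limma.

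**Figure D4:**
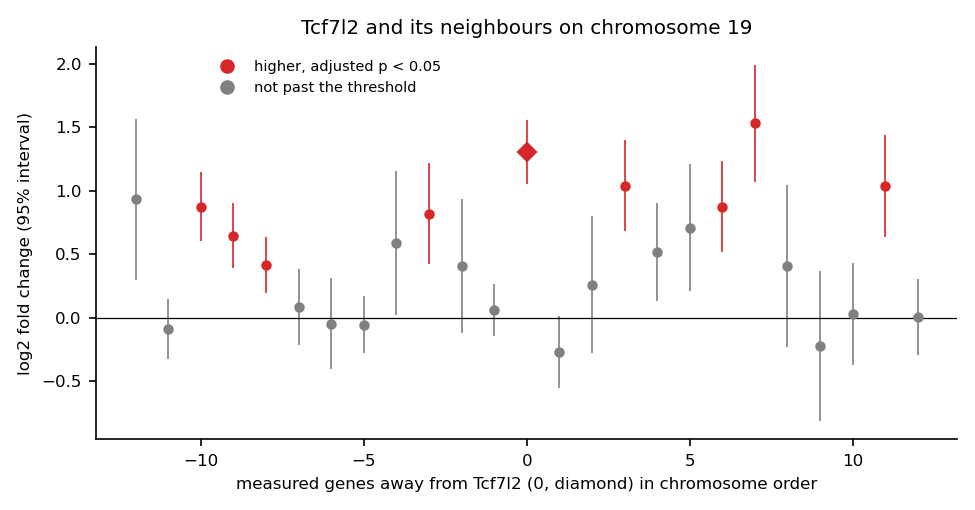
Log2 difference (y axis, EpCAM+ plastic minus full epithelial, with 95% intervals) of *Tcf7l2* (diamond) and of the 12 measured genes on each side of it in chromosome order (x axis, number of genes away). The 8 neighbours that rose are in red and lie on both sides, between genes near 0.

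Wnt ligands leave the cell only after *Porcn* has acylated them. *Porcn* (Entrez gene 53627, chromosome X) read 8.35, 7.89 and 7.93 in full epithelial cells and 8.95, 8.67 and 9.14 in plastic cells. All 3 plastic arrays were above the highest full epithelial array, the nearest pair being plastic replicate 2 and full epithelial replicate 1. The log2 difference was 0.86 ± 0.17 (SE) with an adjusted p of 0.0382 (limma). This call was lost without plastic replicate 1, plastic replicate 3, full epithelial replicate 2 or full epithelial replicate 3 (adjusted p = 0.125, 0.111, 0.0971 and 0.107, limma), with log2 differences of 0.76 to 1.01 over the 6 arrays left out in turn. *Wls*, the carrier that takes acylated ligands to the cell surface, read 6.43, 6.38 and 5.85 against 6.13, 6.78 and 6.10, and the groups overlapped.

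Of the 19 Wnt ligand genes, 0 rose and 1 fell by limma, while 2 were higher and 3 lower with an unadjusted p under 0.05, and 12 were under the background level in both groups. The median log2 difference of the 19 was −0.08. *Wnt11*, a ligand known mostly for signaling that bypasses β-catenin (Entrez gene 22411, chromosome 7), read 6.61, 6.31 and 6.26 in full epithelial cells and 5.50, 5.61 and 5.60 in plastic cells. The groups stood apart by more than the spread within either. All 3 plastic arrays were under the background level of 5.71, which was taken over both groups. The full epithelial mean lay 1.61-fold above that level. This bound on the fall leaves out the error of the mean and the background differences between arrays. The measured log2 difference was −0.83 ± 0.12 (SE, adjusted p = 0.0152, limma), with a 95% interval of −1.11 to −0.55. Without plastic replicate 1 or plastic replicate 3 the adjusted p was 0.0673 or 0.0517 (limma). The background itself was lower in the plastic arrays: the 6 control probe sets with 20 or more G or C bases differed by −0.35 to −0.58, though 0 of the 23 controls were called by limma. The 90th percentile of the controls was 6.13, 5.67 and 5.96 in full epithelial cells and 5.33, 5.62 and 5.45 in plastic cells, and its part in the *Wnt11* difference was not tested.

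*Wnt4*, a ligand gene expressed in epidermis, was well above background in both groups, with 9.20, 8.64 and 8.84 against 8.40, 8.09 and 7.93. The lowest full epithelial array was above the highest plastic array. Its log2 difference was −0.76 (95% interval −1.19 to −0.32) and did not pass (adjusted p = 0.0626, limma), but it passed when quantile normalization was repeated (−0.81, adjusted p = 0.0478) and when only probe sets above background were tested (adjusted p = 0.0414). *Wnt7b*, a ligand gene known in keratinocytes, overlapped between the groups, with 8.67, 7.95 and 8.78 against 8.64, 8.72 and 8.69 and a log2 difference of 0.22 (95% interval −0.29 to 0.73). Its low value came from full epithelial replicate 2 alone, without which the difference was −0.04. Its close relative *Wnt7a* read 6.41, 5.67 and 6.01 against 6.48, 6.21 and 6.14, again overlapping, at 0.25 (95% interval −0.22 to 0.71).

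*Wnt9a* and *Wnt10a* lay near the background level and were higher in every plastic array than in any full epithelial array. *Wnt9a* read 5.72, 6.08 and 5.94 against 6.33, 6.89 and 6.44, a log2 difference of 0.64 (95% interval 0.23 to 1.05, adjusted p = 0.085, limma). *Wnt10a*, a ligand gene whose loss in humans disturbs teeth, hair and other skin appendages, read 4.86, 5.55 and 4.86 against 5.93, 5.59 and 6.52, at 0.92 (95% interval 0.24 to 1.60, adjusted p = 0.12, limma), and plastic replicate 2 nearly met full epithelial replicate 2. Every full epithelial array of *Wnt10a* was under background, as was plastic replicate 2. The plastic mean lay 1.23-fold above the background level, without its error. Neither gene passed. *Wnt3a*, a classical canonical ligand gene, lay just above background and read 5.98, 6.07 and 6.18 against 5.93, 5.66 and 5.77, at −0.29 (95% interval −0.55 to −0.03). The remaining 12 ligand genes (*Wnt1*, *Wnt2*, *Wnt2b*, *Wnt3*, *Wnt5a*, *Wnt5b*, *Wnt6*, *Wnt8a*, *Wnt8b*, *Wnt9b*, *Wnt10b* and *Wnt16*) were all under the background level in both groups, and none passed.

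Frizzled proteins are the receptors that bind the ligands. Of 10 Frizzled genes, 0 passed by limma, while 2 were higher and 1 lower with an unadjusted p under 0.05, and their median log2 difference was 0.04. *Fzd7* was well above background, at 8.50, 8.15 and 7.45 against 7.47, 7.48 and 7.35. Full epithelial replicates 1 and 2 were high, while replicate 3 lay within the plastic values. Its log2 difference was −0.60 (95% interval −1.20 to −0.01, adjusted p = 0.231, limma), and without full epithelial replicate 3 it was −0.90 and passed (adjusted p = 0.0376, limma). Its second probe set read 8.48, 8.25 and 7.70 against 7.40, 7.23 and 7.13, at −0.89 with no overlap (adjusted p = 0.0554, limma). *Fzd1* read 6.90, 6.88 and 6.87 against 7.34, 7.72 and 7.13, so every plastic array was higher, and the difference was 0.51 (95% interval 0.15 to 0.88, adjusted p = 0.11, limma).

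*Fzd6*, a receptor known for hair patterning, read 5.21, 5.38 and 5.52 against 5.82, 5.57 and 6.00. The full epithelial arrays were all under the background level and 2 of the 3 plastic arrays above it. The plastic mean was at least 1.07-fold higher, and the measured log2 difference was 0.43 (95% interval 0.10 to 0.76, adjusted p = 0.136, limma). Its dimmer probe set read 4.98, 5.02 and 4.67 against 5.78, 5.74 and 5.59, at 0.81 (adjusted p = 0.0182, limma) with both group means under background, so the call depended on which probe set stands for the gene. *Fzd2* differed by 0.05 in its brightest probe set, a sign that turned when quantile normalization was repeated (−0.07), and by 0.61 in its second (adjusted p = 0.051, limma), where every full epithelial array was under background and the plastic mean was at least 1.01-fold higher. *Fzd5* read 7.00, 6.91 and 6.28 against 7.12, 6.88 and 6.93, and the groups overlapped. *Fzd3*, *Fzd4*, *Fzd8*, *Fzd9* and *Fzd10* were under the background level in both groups, as was *Fzd10os*, annotated as a transcript opposite to *Fzd10*. No source used here says whether the amplified cDNA kept its strand, so signal from those 2 transcripts cannot be told apart.

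The co-receptor genes *Lrp5* and *Lrp6* were both well above background and neither passed. *Lrp5* read 8.11, 8.20 and 8.32 against 8.64, 8.34 and 8.95, every plastic array being higher by a narrow margin, with a log2 difference of 0.43 (95% interval 0.05 to 0.82, adjusted p = 0.185, limma). *Lrp6* read 8.10, 8.01 and 8.26 against 8.39, 8.09 and 8.56, overlapping, at 0.22 (95% interval −0.12 to 0.56).

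Secreted antagonists catch ligands outside the cell (the Sfrp proteins and *Wif1*) or block the Lrp co-receptors (*Dkk1*). All 8 genes measured of the Sfrp and Dkk families and *Wif1* (*Sfrp1*, *Sfrp2*, *Sfrp5*, *Wif1* and *Dkk1* to *Dkk4*) were under the background level in both groups. By limma 0 passed, with 1 lower with an unadjusted p under 0.05. That one was *Dkk1*, at 4.20, 4.23 and 4.12 against 3.93, 4.01 and 3.86, with no overlap and a log2 difference of −0.25 (95% interval −0.46 to −0.04). *Sfrp1* had the largest difference of the 8, 0.35 (95% interval −0.05 to 0.75), with 4.81, 4.64 and 5.13 against 5.45, 5.00 and 5.17. The 4 R-spondin genes, whose proteins amplify Wnt signals, were also under background, with differences of −0.17 to −0.02, of which that of *Rspo3* (−0.03) turned to 0.02 when quantile normalization was repeated. *Rnf43* and *Znrf3* encode the ligases that remove Frizzled receptors and are held back by R-spondins, and they differed by −0.07 and −0.0045 at background.

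The destruction complex genes were measured above background in both groups. In their brightest probe sets 0 of 3 passed by limma, with 0 with an unadjusted p under 0.05. *Axin1*, a scaffold of the complex, read 9.18, 9.05 and 8.73 against 8.76, 8.60 and 8.72, at −0.29 (95% interval −0.61 to 0.02). Only full epithelial replicate 3 lay among the plastic values. The second *Axin1* probe set, also above background in both groups, differed by −0.47 with no overlap. Its 95% interval was −0.88 to −0.06, and it did not pass (adjusted p = 0.175, limma). *Axin2*, both a scaffold and a widely used readout of canonical signaling, read 5.69, 5.93 and 5.85 against 5.75, 5.69 and 5.76, at −0.09 (95% interval −0.32 to 0.14), close to the background level in every array. *Apc*, the tumor suppressor that holds the complex together, read 6.65, 6.87 and 7.02 against 6.93, 7.16 and 7.16, at 0.24 (95% interval −0.06 to 0.54). Its 4 probe sets differed by 0.24 to 0.50, and their mean passed, at 0.35 (adjusted p = 0.0481, limma).

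Other genes of the pathway were taken from a list of 74, of which 69 were measured. Of these, 9 rose, 2 fell and 58 did not pass, with a median log2 difference of −0.03, where 5.3% of all genes rose and 1.91% fell (10.1% and 3.39% of genes with a mean above background). With the minimum log2 difference of 1, 5 rose and 1 fell, where 1.99% and 0.831% of all genes did. *Prickle1* and *Vangl1*, core genes of the planar cell polarity branch, rose by 1.59 ± 0.29 (SE; adjusted p = 0.0301, limma) and 0.83 ± 0.14 (adjusted p = 0.026). *Prickle1* was under background in all full epithelial arrays, at 5.00, 4.21 and 5.26 against 6.21, 6.24 and 6.80, which gives at least a 1.63-fold rise. The other planar polarity genes *Vangl2*, *Prickle2*, *Celsr1*, *Celsr2* and *Celsr3* did not pass, at −0.14, −0.20, −0.11, 0.25 and 0.07, and the groups overlapped in each. *Lgr4* and *Lgr6*, receptors for the R-spondins, rose as well. *Lgr4* read 6.29, 6.48 and 5.96 against 7.28, 7.16 and 7.61, at 1.10 ± 0.17 (adjusted p = 0.0204, limma). *Lgr6*, known from skin stem cells, read 4.58, 4.44 and 4.74 against 5.80, 5.37 and 5.75, at 1.05 ± 0.15 (adjusted p = 0.0142, limma), with both group means under background, so no fold is given. The third receptor of that family, *Lgr5*, was at background, with values of 3.25 to 3.48 against 3.39 to 3.66.

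Inside the cell, *Dvl1* fell and had the smallest p of the list. *Dvl1*, a Dishevelled gene whose protein passes the signal from Frizzled to the destruction complex, read 9.75, 9.89 and 9.76 against 8.70, 8.67 and 8.72, at −1.10 ± 0.09 (SE; adjusted p = 0.00517, limma). The groups were tight and far apart. The other Dishevelled genes did not pass: *Dvl2* read 5.87, 5.92 and 6.08 against 6.98, 6.78 and 6.11, at 0.67 with every plastic array higher (95% interval 0.14 to 1.19, adjusted p = 0.142, limma), and *Dvl3* differed by −0.11 (95% interval −0.37 to 0.15). *Gsk3a*, a kinase that phosphorylates β-catenin in the complex, fell, from 8.19, 8.11 and 8.21 to 7.48, 7.47 and 6.91, at −0.88 ± 0.17 (adjusted p = 0.0328, limma). Its paralog *Gsk3b* did not pass, at 0.11 with every plastic array higher (95% interval −0.09 to 0.30). *Nkd2*, an inhibitor that binds Dishevelled, rose from 7.48, 7.47 and 7.92 to 9.43, 8.59 and 9.36, at 1.50 ± 0.25 (adjusted p = 0.0231, limma). *Tnks2*, a tankyrase that marks Axin for degradation, rose by 0.95 ± 0.17 (adjusted p = 0.0276, limma).

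*Btrc*, *Tle1* and *Tpbg* were the remaining genes of the list that rose, at 1.16, 0.89 and 0.91. They were named after their values were seen. So were *Tcf7l1*, *Wls*, *Lgr5*, *Dvl2*, *Dvl3*, *Gsk3b*, the 5 planar polarity genes that did not pass and β-catenin's own gene *Ctnnb1*. The same holds for *Tle2* to *Tle5*, *Nkd1*, *Tnks* and *Fbxw11*. *Btrc* encodes the receptor of the ligase that degrades β-catenin, *Tle1* a corepressor of Tcf factors, and *Tpbg* a membrane protein that inhibits canonical signals. The other Tle genes did not pass. *Tle5* differed by −0.57 with no overlap and *Tle3* by −0.43, both above background, and *Tle2* and *Tle4* by −0.20 and −0.06 under background. *Nkd1*, *Tnks* and *Fbxw11*, paralogs of *Nkd2*, *Tnks2* and *Btrc*, did not pass either, at −0.16, −0.03 and −0.13. *Ctnnb1* itself did not pass, at 10.72, 10.73 and 10.64 against 10.79, 11.02 and 10.74, a difference of 0.15 (95% interval −0.10 to 0.40). *Btrc* and *Tnks2* lie on chromosome 19, and 7 of the 66 measured genes of the list on other chromosomes rose. Taking the mean of all probe sets of a gene, *Btrc*, *Lgr4* and *Nkd2* differed by 0.17, 0.47 and 0.74 and no longer passed. Leaving out plastic replicate 1, plastic replicate 3 or full epithelial replicate 1 cut the calls over all probe sets from 2699 to 576, 920 and 1014. On this list the same fits gave 0, 1 and 1 genes that rose (limma), with 15 higher with an unadjusted p under 0.05 each time. The 1 without plastic replicate 3 was *Dvl2*, which is not among the 9, the 1 without full epithelial replicate 1 was *Btrc*, and without full epithelial replicate 3 there were 4, all among the 9. *Dvl1* passed with any array left out, at −1.13 to −1.06, while *Gsk3a* passed only without plastic replicate 2 or plastic replicate 3, so *Dvl1* was the only gene that fell in the other 4 cases.

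Genes known as targets of β-catenin and Tcf/Lef factors in one tissue or another were taken from a list of 32. No gene of the groups above was put in it, so *Axin2*, a readout of canonical signaling, is not part of it. Of the 32 genes, 31 were measured. Of these, 3 rose, 1 fell and 27 did not pass, where 5.3% of all genes rose and 1.91% fell (10.1% and 3.39% of genes with a mean above background), so 3 and 1 of 31 lie near the background, and their median log2 difference was 0.02. *Ccnd1*, which encodes cyclin D1 of the G1 phase, read 9.32, 9.70 and 9.68 against 10.70, 10.88 and 10.71, at 1.20 ± 0.13 (SE; adjusted p = 0.00865, limma). Every plastic array was about 1 log2 unit or more above every full epithelial array, and the call held with any array left out. *Edn1*, the gene of the peptide endothelin, read 5.02, 5.36 and 5.18 against 6.65, 6.13 and 5.92, at 1.05 ± 0.20 (adjusted p = 0.033, limma), or at least 1.44-fold higher because every full epithelial array was under background. *Myc*, a growth-promoting transcription factor gene, read 9.23, 9.55 and 9.42 against 10.09, 10.34 and 9.86, at 0.70 ± 0.15 (adjusted p = 0.0462, limma). The *Myc* call was lost whichever array was left out (adjusted p = 0.0572 to 0.137, limma) and the *Edn1* call held in 1 of 6 cases. *Ccnd1* was the only target that rose without plastic replicate 1, full epithelial replicate 1 or full epithelial replicate 2, and without plastic replicate 2 the number that fell was 2. *L1cam*, a cell adhesion gene, fell from 6.24, 6.37 and 6.24 to 5.45, 5.54 and 5.37, under background in every plastic array and therefore at least 1.49-fold lower (adjusted p = 0.00884, limma), and it passed with any array left out. As with *Wnt11*, the control probe sets were lower in the plastic arrays, and their part in the *L1cam* difference was not tested.

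**Figure D5:**
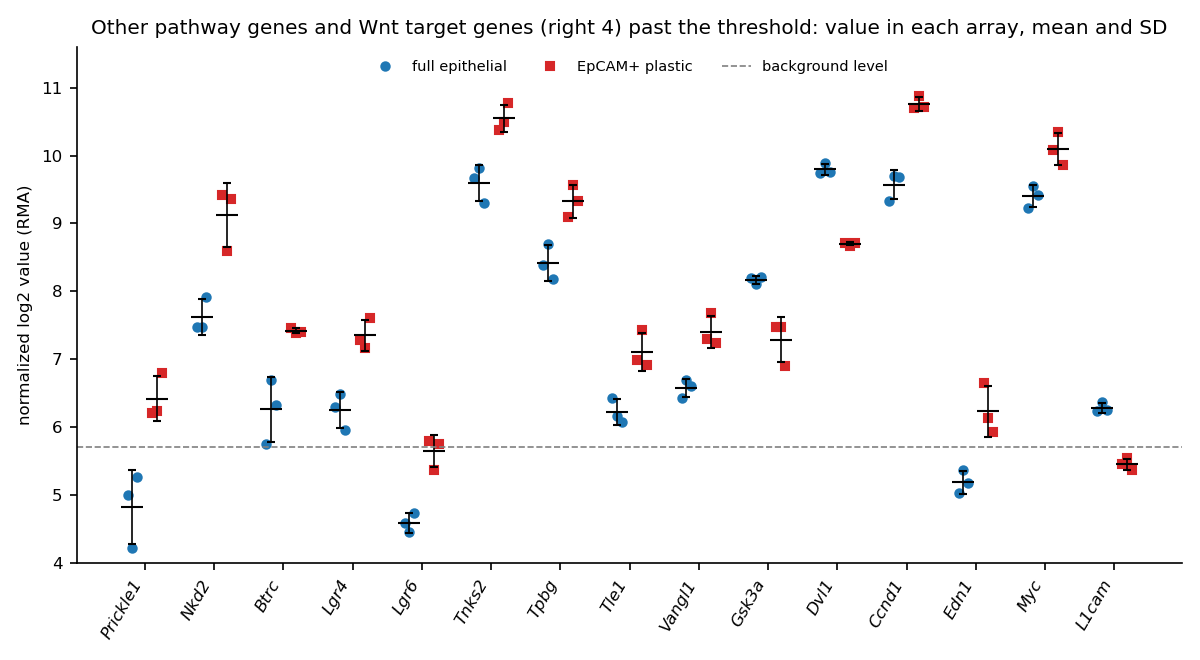
Normalized log2 value (y axis) of the 11 other pathway genes and the 4 target genes (right) past the threshold, in 3 full epithelial (blue circles) and 3 EpCAM+ plastic arrays (red squares), with mean and SD in black and the background level of 5.71 dashed. *Dvl1*, *Gsk3a* and *L1cam* are the 3 genes whose plastic arrays lie below the full epithelial arrays.

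The arrays resembled each other closely, with correlations over all probe sets of 0.979 to 0.990 within a group and 0.954 to 0.976 between groups. The sort was checked with marker genes. All 6 keratinocyte markers, *Epcam* and *Itga6* among them, were above background in both groups, with a mean level of 10.16 to 10.51 in full epithelial and 10.36 to 10.68 in plastic cells. *Ptprc*, which encodes CD45, was at 2.90 to 3.00 against 2.93 to 2.96, near the bottom of the scale. None of 7 endothelial, 5 melanocyte and 10 fibroblast markers passed by limma, nor did the 9 immune, 8 hair follicle and 5 dermal papilla markers measured, with 0 higher and 6 lower of these 44 with an unadjusted p under 0.05. Immune markers averaged 4.55 to 4.59 against 4.33 to 4.47, with *Cd68* and *Csf1r* the only 2 above background (*Cd68* at 9.32, 9.41 and 8.50 against 8.57, 8.25 and 7.67), and their part in the Wnt gene values was not tested. Fibroblast markers averaged 4.86 to 5.11 against 4.57 to 5.57, the highest in plastic replicate 2 (*Postn* at 7.62 there and at most 5.03 elsewhere). Without plastic replicate 2 the same 3 Wnt genes passed. By the mean over the 6 arrays, *Col1a1* and *Col3a1* were the 2 fibroblast markers above background (group means of 7.22 against 7.05 and 6.74 against 6.19), *Foxn1* the 1 hair follicle marker (6.17 against 5.31) and *Prdm1* the 1 dermal papilla marker (10.50 against 9.90). *Postn* in plastic cells (5.72) and *Krt15* in full epithelial cells (5.77) had a mean just above background in that group alone. The part of these markers in the Wnt gene values was not tested.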

How the data were processed

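Sorted cancer cells of 3 WD-SCCs and 3 MD/PD-SCCs were profiled, 1 array per tumor, after whole-transcriptome amplification of 10 ng total RNA and hybridization to Affymetrix mouse genome PM array strips. The deposited values are log2 intensities that the authors normalized with RMA, per the labels. RMA subtracts background, brings the distributions of all arrays close together and summarises probes, which hides shifts shared by most genes and shrinks differences near background. The deposited distributions still differed, with upper quartiles of 6.52 to 6.56 in full epithelial and 6.63 to 6.67 in plastic arrays. The depositors gave the same table in 2 files, which did not differ (largest difference 0). Arrays have no read depth, and 3 per group limit the precision. The platform annotation gave 1 gene for 28898 of 45141 probe sets, several for 551 (not used, 3 naming *Sfrp1* among them) and listed no gene for 15692. *Sfrp4* and *Tcf7* were not analysed here.

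Groups were compared with limma 3.58.1 in R 4.3.3 (lmFit and eBayes, no covariates, residual df 4) over all probe sets with Benjamini-Hochberg adjustment, which passes genes at an adjusted p under 0.05. The design's rule for background controls named no probe set in the files, so the 23 nonspecific GC controls were used, and the background level is the 90th percentile of their means. For a fold, a bound is given where every array of 1 group was under this level and the mean of the other above it. None is given where both means were under it. A bound sets the mean of the higher group against this level, without its error or the differences in background between arrays. The fit was tested on simulated data with known changes before use.

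Named were the genes past the threshold, the highest and most different members of each role, the singly listed genes, and the context genes with the smallest p; the remaining members are given to account for all 52. The members and the lists of pathway, target and marker genes were chosen with earlier results of these data known. Replicate numbers were tested for pairing: deviations of same-numbered arrays correlated at −0.18, −0.37 and −0.0057, so no block was used. The alternatives were a repeated quantile normalization, median centring, a variance trend, array weights, a background filter, the mean or any of a gene's probe sets, a minimum log2 difference of 1, the replicate number as a block, and each array left out.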

Additional observations from a re-analysis of the deposited data

How the results depend on the processing

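*Tcf7l2* passed under every alternative run, while *Porcn* and *Wnt11* kept their directions throughout and passed except with certain arrays left out, under the replicate block and with the minimum log2 difference. The number of Wnt genes that rose (2) was 1 with the replicate number as a block, 4 with the mean of all probe sets (*Apc* and *Fzd6* gained), 1 with the minimum log2 difference of 1, and 1 to 2 with each array left out. The number that fell (1) was 0 under the block, 2 with only probe sets above background tested and 2 with quantile normalization repeated (*Wnt4* gained both times), 0 with the minimum, and 0 to 2 with each array left out. These zeros are limma counts, beside which 3 Wnt genes under the block and 2 to 5 with an array left out were lower at an unadjusted p under 0.05. Of the other pathway genes, the number that rose (9) was 2 under the block, 5 with the minimum and 0 to 7 with each array left out, where the 1 without plastic replicate 3 was *Dvl2* and none of the 9, and the number that fell (2) was 1, 1 and 1 to 3. Of the target genes, the number that rose (3) was 5 with array weights, 1 under the block, 6 with the mean of all probe sets and 1 to 4 with each array left out, where the 4 without plastic replicate 2 shared 1 gene with the 3, and the number that fell (1) was 0 with the minimum and 1 to 2 with each array left out. The causes were not tested, apart from the fewer arrays or the extra threshold that some alternatives have by construction.

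The replicate block cut the probe sets called from 2699 to 483, and *Porcn* and *Wnt11* then had adjusted p of 0.079 and 0.0699 (limma); the same-numbered arrays share only a number. Leaving out plastic replicate 1, plastic replicate 3 or full epithelial replicate 1 left 576, 920 and 1014 probe sets called. Repeated quantile normalization made 56.5% of the called probe sets higher in plastic cells, against 68.8%, and moved the median of all genes by less than 0.1.

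Signs turned only for genes that did not pass. Under repeated quantile normalization, *Fzd2* went to −0.069 and *Rspo3* to 0.015. With each array left out, the log2 differences ran from −0.040 to 0.056 for *Dkk3*, −0.065 to 0.15 for *Dkk4*, −0.16 to 0.047 for *Fzd10os*, −0.061 to 0.18 for *Fzd2*, −0.12 to 0.029 for *Rspo3*, −0.11 to 0.030 for *Rspo4*, −0.12 to 0.014 for *Sfrp5*, −0.042 to 0.37 for *Wnt7b* and −0.095 to 0.068 for *Znrf3*. Signs also turned for 11 other members, all under background in both groups, at −0.19 to 0.16. Signal near background limits 33 of the 52 genes.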

Other observations

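Several Wnt genes gave different answers through different probe sets, which the report's rule of 1 probe set per gene leaves out. Of the 86 probe sets of the 52 genes, 6 were called higher and 1 lower by limma, where 1856 and 843 of all 45141 were (5.98% together). The 6 were the 4 of *Tcf7l2*, that of *Porcn* and the dimmer one of *Fzd6*, and the 1 was that of *Wnt11*. The second probe set of *Wnt4* differed by −0.16, against −0.76 in the brightest.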
